A study of Mus musculus with 12 samples.

Results

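The respiratory chain of mitochondria was examined through its nuclear-encoded genes in pancreatic cancer cells that differed in p53 status. The members were 39 genes for subunits of complexes I, II, III and IV and for cytochrome c, chosen by name, with earlier results of these data known, and no measured value entered the rule. A probe set, the group of short probes that reads a transcript on the array, was taken where the platform annotation gave it a single gene symbol that was one of these names. This gave 84 of the 45037 probe sets tested and 38 of the 39 genes, out of 18193 genes read in the same way. Cox7b was named by no such probe set and was not analysed here. Complex I contributed 23 genes, complex II 4, complex III 5, complex IV 5 and cytochrome c 1.

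Electrons from NADH enter the chain at complex I and electrons from succinate at complex II, which is also an enzyme of the citric acid cycle. Complex III passes them to cytochrome c, a small soluble protein, and complex IV hands them to oxygen. Complexes I, III and IV pump protons across the inner membrane, and complex V uses that gradient to make ATP. Glycolysis makes ATP from glucose in the cytosol, and cancer cells are known for running it even where oxygen is plentiful.

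RNA had been hybridized to 12 Affymetrix mouse arrays, with 3 arrays in each of 4 groups. The fl-CCs were cancer cells of mice with Pdx1-Cre and Trp53 fl/+, and were labelled as p53 null. The mt-CCs were cancer cells from tumors with the same Cre and with LSL-Trp53 R172H/+ in place of the floxed allele. The other two groups were fl-CCs with empty vector (fl-CCs+EV) and fl-CCs with human mutant p53 R175H (fl-CCs+p53R175H), both kept in G418. All 4 groups were cultured in DMEM with 10% serum to 60% confluency, and no drug other than the G418 of the transfected cells is named in the labels. Cre was driven by the Pdx1 promoter, which is active in the pancreatic lineage. Each genotype was a single cell line, so that p53 status and any other difference between the mt-CCs line and the fl-CCs line cannot be told apart. The arrays of a group were prepared as a biological triplicate of that line, and the p-values measure the spread between those preparations, not between tumors.

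The deposited values are log2 intensities after RMA, a normalization that gave all arrays the same median of 5.59, so a difference of 1 is a doubling. Values of 2 arrays of the same group correlated at 0.994 to 0.996 over all probe sets, and mt-CCs arrays correlated with those of the other groups at 0.959 to 0.962. The arrays read RNA from whole cultures, so that fewer cells of a kind and less RNA per cell cannot be told apart. A mean log2 value under 5 was taken here as near background. Of 8 epithelial markers, 7 had a higher mean than that in every group, and Cldn4 did not. Cdh1 (E-cadherin) was at 10.01 in mt-CCs and 12.25 in fl-CCs, Epcam at 6.88 and 9.78, and Krt7 at 8.52 and 12.96, while Krt19 was at 13.68 and 13.66. In mt-CCs the log2 of the summed level of the list was 15.04 to 15.13, against 15.64 to 15.71 in fl-CCs. The summed level of 12 fibroblast markers was 10.61 to 10.66 in mt-CCs, 8.08 to 8.46 in fl-CCs, 8.39 to 8.47 in fl-CCs+EV and 8.63 to 8.69 in fl-CCs+p53R175H, with 8 of the 12 below 5 in mt-CCs and 9 of the 12 below 5 in fl-CCs. Col3a1, a fibrillar collagen, differed most of these (9.50 in mt-CCs and 3.48 in fl-CCs). Not all fibroblast markers rose: 6 of the 12 were called with a rise in mt-CCs and 1, Acta2, with a fall. For 6 leukocyte markers the summed level was 8.28 to 8.30 in mt-CCs and 7.28 to 7.45 in fl-CCs, and 4 of them were below 5 in each. Of these 6, Cd68 was the one called (7.66 and 5.75), and the median difference of the list was 0.05. All 4 endothelial markers had means below 5 in both lines. The part of these shifts in the results for mt-CCs was not tested.

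All members were read well above background. At the probe set with the highest mean over all arrays, which was used for every statement on a gene, the members had mean log2 intensities of 9.31 to 13.45. Levels of different probe sets cannot be set against each other as amounts of transcript, so that brightness is used only to choose genes for comparison. Of the 84 probe sets, 74 had a mean of at least 5. The 10 dimmer ones were second or further probe sets of Ndufb9, Ndufs4, Sdha, Uqcrq, Cox5b and Cycs, and they stayed in the counts.

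Sequences upstream of 4 genes are shown because these genes carry the contrasts described below. Ndufs7 and Ndufa8, of complex I, were higher in mt-CCs, and Cycs and Cox5a were lower. Each stretch holds the 250 bases before the annotated start in RefSeq for assembly GRCm38.p6, 5′ to 3′ on the strand of the gene. Capitals mark matches to the letters GCGCANGCG, bound by nuclear respiratory factor 1 (NRF1), or TGACGTCA, bound by CREB. NRF1 is a transcription factor known for driving respiratory genes.
Ndufs7 (chr10:80249199-80249448, + strand): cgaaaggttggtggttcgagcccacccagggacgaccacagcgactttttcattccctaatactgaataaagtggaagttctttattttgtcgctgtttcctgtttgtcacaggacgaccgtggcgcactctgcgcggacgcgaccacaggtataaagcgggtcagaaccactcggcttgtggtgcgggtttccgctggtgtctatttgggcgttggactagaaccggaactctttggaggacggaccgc
Ndufa8 (chr2:36049339-36049588, - strand): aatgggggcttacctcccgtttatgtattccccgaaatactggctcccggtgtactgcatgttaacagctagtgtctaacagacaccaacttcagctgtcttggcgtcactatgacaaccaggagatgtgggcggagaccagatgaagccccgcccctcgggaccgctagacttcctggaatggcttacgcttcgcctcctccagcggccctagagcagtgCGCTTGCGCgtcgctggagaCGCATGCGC
Cycs (chr6:50566570-50566819, - strand): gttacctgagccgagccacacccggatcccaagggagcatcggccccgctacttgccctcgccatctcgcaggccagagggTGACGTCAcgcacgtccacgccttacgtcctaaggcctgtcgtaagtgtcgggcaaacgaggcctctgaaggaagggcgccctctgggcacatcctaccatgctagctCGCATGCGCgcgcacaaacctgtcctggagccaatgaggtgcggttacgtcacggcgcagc
Cox5a (chr9:57520982-57521231, + strand): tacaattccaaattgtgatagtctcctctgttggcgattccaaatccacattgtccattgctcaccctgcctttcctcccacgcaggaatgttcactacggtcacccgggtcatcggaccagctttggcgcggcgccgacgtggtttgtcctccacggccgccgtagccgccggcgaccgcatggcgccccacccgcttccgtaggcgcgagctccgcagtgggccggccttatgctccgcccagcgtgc
The upstream stretch of Ndufa8 held GCGCANGCG at 2 places, both on the other strand, and that of Cycs held it once beside a single TGACGTCA. Those of Ndufs7 and Cox5a held neither. Promoters were found for 30 of the members, 31 promoters in all, and 6 of these (19.4%) held the NRF1 letters on either strand, against 5.16% of the 32851 promoters of that table. The genes were Cycs, Ndufa5, Ndufa8, Sdha and Sdhd. CCGGAAG, bound by GABP and other ETS factors, was in 12.9% of member promoters and 6.91% of all promoters, and TGACGTCA in 12.9% and 1.55%. AAGGTCA (estrogen-related receptors) was in 3.23% and 4.08%, the E-box CACGTG in 3.23% and 6.02%, and AAGATGGCG (YY1) in 0 and 0.606%. A match is a description of letters and not of a bound site. Genes with the NRF1 letters thus lay on both sides of the comparison of mt-CCs with fl-CCs.

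The first comparison, mt-CCs against fl-CCs, asks how the chain differs where mutant p53 is expressed from its own locus. The chain did not move as a block: 9 of 38 genes were higher, 8 were lower, and the median difference was 0.07 on the log2 scale, against -0.01 for all genes. Calls rest on limma with p-values adjusted by Benjamini-Hochberg, at 0.05 or less, whatever the fold change. Among all genes 18.3% were called higher and 17.7% lower. Among the 4810 genes at least as bright as the dimmest member the shares were 24.0% and 24.9%, and the members' 23.7% and 21.1% lay near them. By probe set, 12 of 84 were higher (15.4% of all probe sets) and 19 were lower (15.3%). The differences were small. They ran from -0.45 to 0.54, and 1 of 38 genes differed by at least 0.5, against 24.7% of all genes and 24.9% of the equally bright ones. Over all 84 probe sets they ran from -0.91 to 1.18, and 7 (8.33%) differed by at least 0.5, against 22.4% of all probe sets. The median difference depended on the first fl-CCs array, on which the members read high, and was 0.14 without it. Of the 17 called genes, 10 no longer passed when the fit held only the arrays of the groups compared (adjusted p = 0.0505 to 0.128). The other 7, which passed there and whichever array was left out, were Ndufs7, Ndufa8, Ndufb10, Ndufb6, Cox5a, Cox4i1 and Cycs.

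**Figure D1:**
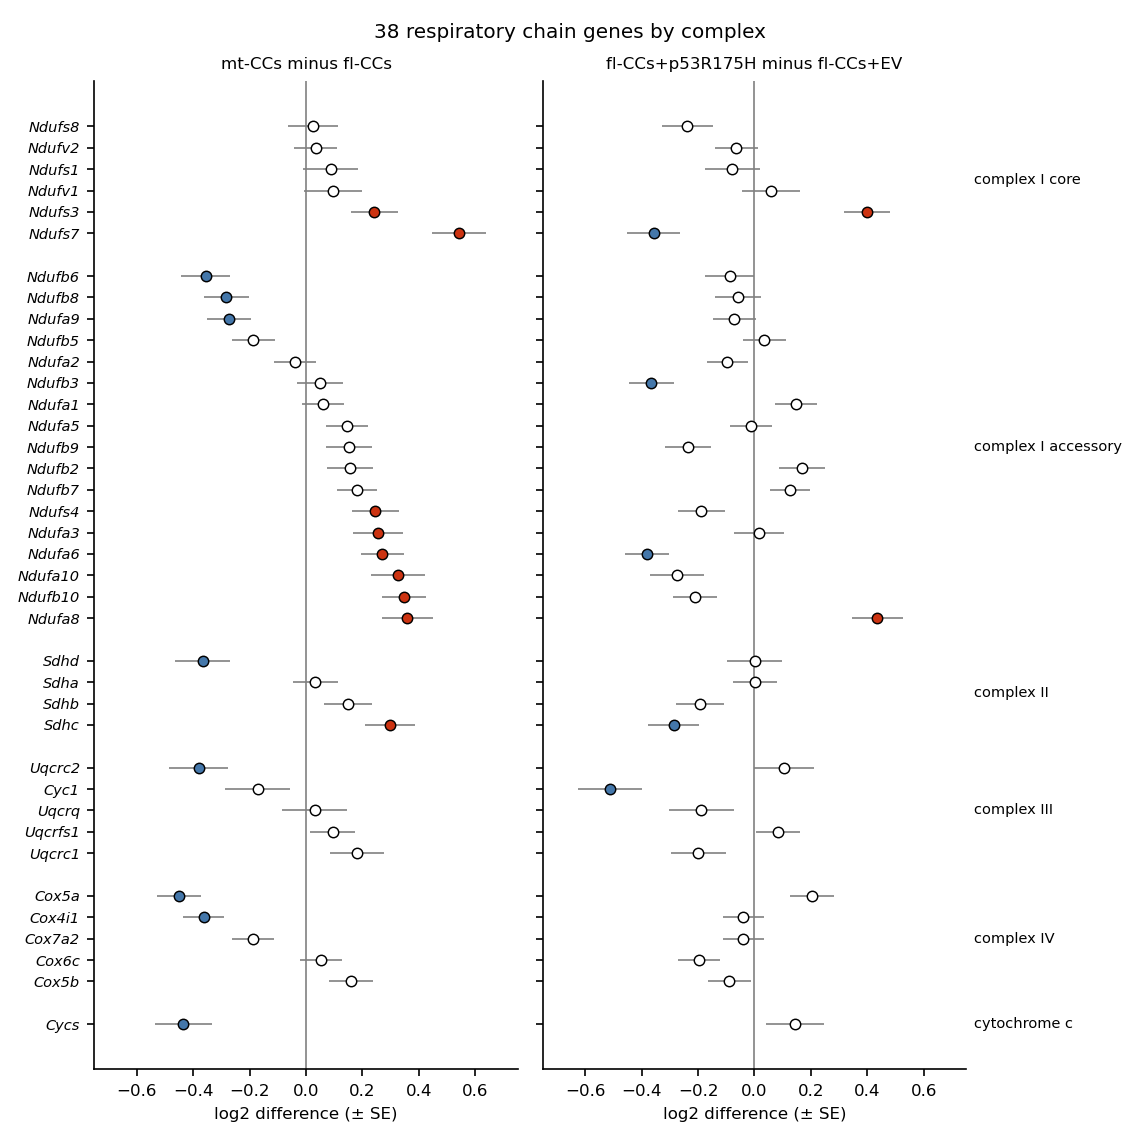
Log2 differences (horizontal axis, bars give the SE of the fit) of the 38 respiratory chain genes, grouped by complex, for mt-CCs minus fl-CCs (left) and fl-CCs+p53R175H minus fl-CCs+EV (right), with 3 arrays a group. Filled points passed the test, red for higher and blue for lower. On the left, complex I, with 23 of the 38 genes, holds 8 of the 9 that were higher. The called members of complexes III and IV and cytochrome c were lower.

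Complex I, the entry for NADH, is 23 of the 38 genes and held 8 of the 9 rises. In mt-CCs these 8 (34.8%) were higher and 3 (13.0%) were lower, with a median difference of 0.14, beside 24.0% and 24.9% of the equally bright genes. Ndufs7, a core subunit that carries an iron-sulfur cluster next to the ubiquinone site, changed most. It read 12.18, 11.97 and 11.97 in mt-CCs and 11.56, 11.47 and 11.44 in fl-CCs. The groups did not overlap, and the difference was 0.54 ± 0.10 (SE), a 1.46-fold higher intensity (adjusted p = 0.000805). Its other probe set differed by 0.47 (adjusted p = 0.00048). Ndufs3, a core subunit of the arm that protrudes into the matrix, read 11.12, 11.08 and 11.19 in mt-CCs and 10.94, 10.83 and 10.88 in fl-CCs, a difference of 0.24 ± 0.08 (adjusted p = 0.0419, and 0.096 with only the groups compared). The other 4 core genes, Ndufs1, Ndufs8, Ndufv1 and Ndufv2, had differences of 0.02 to 0.10 and did not pass.

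The 17 accessory subunits of complex I split into 6 that were higher, 3 that were lower and 8 that did not pass. Of these 9 calls only those of Ndufa8, Ndufb10 and Ndufb6 held in the fit of the groups compared and whichever array was left out. Ndufa10, Ndufa6, Ndufa3, Ndufs4, Ndufb8 and Ndufa9 lost theirs in that fit (adjusted p = 0.055 to 0.128) and without at least 1 of the arrays, Ndufs4 without any 1 of 11 and Ndufa3 without any 1 of 10. Ndufa8, a subunit on the side of the intermembrane space, read 10.82, 10.73 and 10.81 in mt-CCs and 10.58, 10.35 and 10.36 in fl-CCs, a rise of 0.36 ± 0.09 (adjusted p = 0.00906). Ndufb10, on the same side, read 12.42, 12.45 and 12.51 in mt-CCs and 12.22, 12.03 and 12.09 in fl-CCs, a rise of 0.35 ± 0.08 (adjusted p = 0.00469). All mt-CCs arrays lay above all fl-CCs arrays for both genes. Ndufa10 read 12.17, 12.15 and 12.14 in mt-CCs and 11.98, 11.69 and 11.80 in fl-CCs (0.33 ± 0.10, adjusted p = 0.0209). Ndufa6, a small subunit of the matrix arm, rose by 0.27 ± 0.08 (adjusted p = 0.0174), and Ndufa3 by 0.26 ± 0.09 (adjusted p = 0.0444). Ndufs4, a subunit known from Leigh syndrome, read 12.08, 11.84 and 12.04 in mt-CCs and 11.77, 11.76 and 11.70 in fl-CCs (0.25 ± 0.08, adjusted p = 0.0437). Its next brightest probe set did not follow and differed by -0.16 (adjusted p = 0.294). Another one, with a mean of 5.40 and 2 of the 3 fl-CCs arrays below 5, was called higher by 1.18 (adjusted p = 0.000788).

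The falls in complex I were Ndufb6, Ndufb8 and Ndufa9. Ndufb6, a subunit of the membrane arm, read 10.69, 10.80 and 10.73 in mt-CCs and 11.21, 11.02 and 11.06 in fl-CCs, a difference of -0.35 ± 0.09 (adjusted p = 0.0077). A second probe set of the gene differed by -0.56 (adjusted p = 0.00101). Ndufb8, also of the membrane arm, differed by -0.28 and Ndufa9, at the junction of the arms, by -0.27. Rises and falls thus occurred among the subunits of a single complex. The remaining 8 accessory genes, Ndufa1, Ndufa2, Ndufa5, Ndufb2, Ndufb3, Ndufb5, Ndufb7 and Ndufb9, did not pass.

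The membrane anchors of complex II were called in opposite directions in mt-CCs, and neither call held with only the groups compared (adjusted p = 0.079 for Sdhc and 0.0505 for Sdhd). Sdhc read 11.89, 12.004 and 12.10 in mt-CCs and 11.59, 11.81 and 11.71 in fl-CCs, higher by 0.30 ± 0.09 (adjusted p = 0.0233). Its other probe set, of nearly the same brightness, differed by 0.14 (adjusted p = 0.173). Sdhd read 11.48, 11.58 and 11.82 in mt-CCs and 11.94, 12.07 and 11.98 in fl-CCs (-0.37 ± 0.10, adjusted p = 0.0123), and its second probe set differed by -0.36 (adjusted p = 0.00856). Neither gene overlapped between the groups. Without any 1 of 4 arrays the call of Sdhc was lost (adjusted p up to 0.0882), while Sdhd passed whichever array was left out. Sdha and Sdhb, which form the catalytic part with the flavin and the iron-sulfur clusters, differed by 0.03 and 0.15 and did not pass.

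Among the members downstream of complexes I and II, every called gene was lower in mt-CCs. These were 1 of 5 genes of complex III, 2 of 5 of complex IV, and cytochrome c. Of the equally bright genes 24.9% were called lower. Uqcr10, a subunit of complex III outside the members, was called higher. Uqcrc2, a core protein of complex III, read 11.87, 11.56 and 11.55 in mt-CCs and 12.20, 11.91 and 12.01 in fl-CCs, a difference of -0.38 ± 0.11 (adjusted p = 0.0155, and 0.0675 with only the groups compared). Its second probe set differed by -0.55 (adjusted p = 0.000105). The other complex III genes, Uqcrc1, Uqcrfs1, Uqcrq and Cyc1, had differences of -0.17 to 0.18 and did not pass.

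Cox5a, a nuclear-encoded subunit of complex IV, was the clearest fall. It read 11.92, 11.92 and 11.88 in mt-CCs and 12.44, 12.29 and 12.35 in fl-CCs, so the lowest fl-CCs array lay above the highest mt-CCs array. The difference was -0.45 ± 0.08 (adjusted p = 0.000754), and its 3 probe sets gave -0.45 to -0.67, all called. Cox4i1, which joins the assembly of complex IV early, read 12.23, 12.31 and 12.24 in mt-CCs and 12.56, 12.68 and 12.63 in fl-CCs (-0.36 ± 0.07, adjusted p = 0.00218). Cox5b, Cox6c and Cox7a2 differed by 0.16, 0.05 and -0.19 and did not pass. Cycs, the electron carrier that also triggers apoptosis when it leaves mitochondria, read 11.75, 11.83 and 11.72 in mt-CCs and 12.41, 12.07 and 12.13 in fl-CCs. It fell by 0.44 on the log2 scale (SE 0.10, adjusted p = 0.00556), and its 3 bright probe sets gave -0.44 to -0.91, all called.

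**Figure D2:**
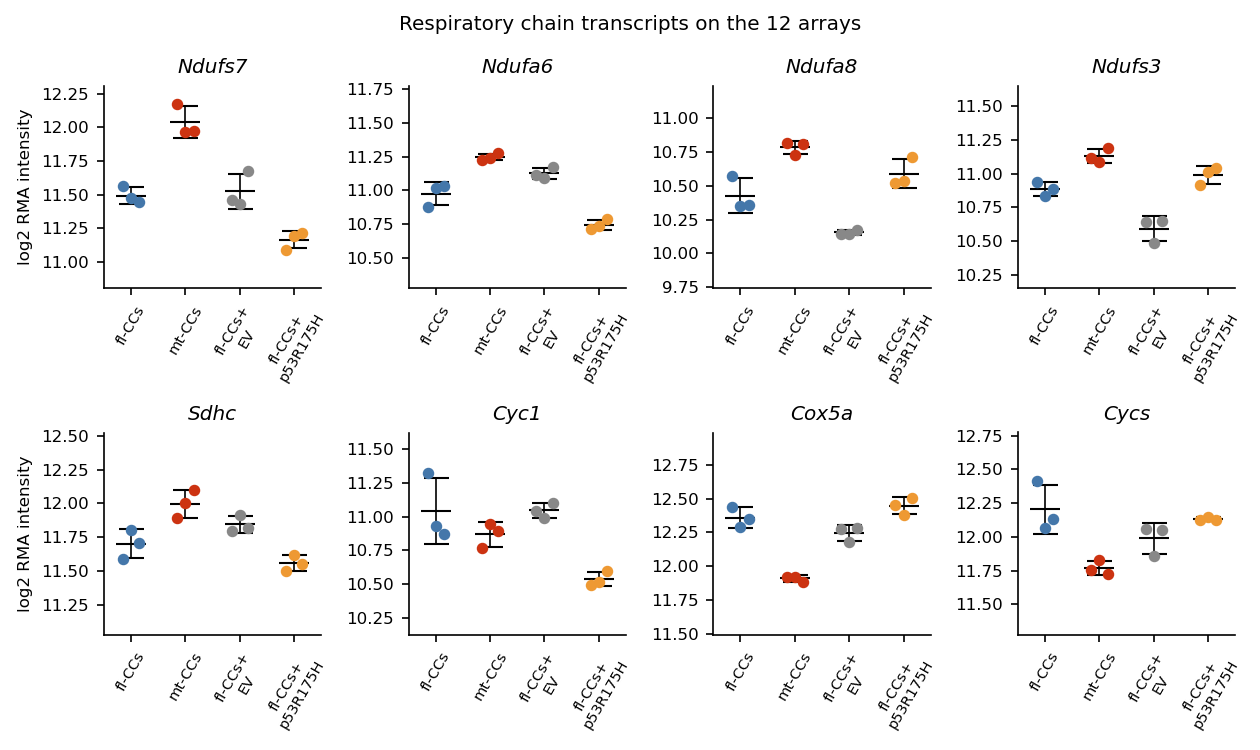
Log2 RMA intensity (vertical axis, the same span of 1.5 in each panel) of 8 members on the 12 arrays, by group. Points are arrays, wide ticks are group means and bars are the SD (n = 3). Ndufa8 and Ndufs3 were higher with mutant p53 in both settings, Ndufs7, Ndufa6 and Sdhc were higher in mt-CCs and lower in fl-CCs+p53R175H than in their controls, and Cox5a and Cycs were lowest in mt-CCs.

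The second comparison, fl-CCs+p53R175H against fl-CCs+EV, sets human mutant p53 beside empty vector in null cells of the same line. The labels name no second transfected population of either kind. Thus p53R175H and any other difference between these populations cannot be told apart. Here 2 of 38 genes were higher and 5 were lower, with a median difference of -0.07 (all genes -0.01). Among all genes 13.0% were higher and 12.1% lower, and among the equally bright genes 18.6% and 17.6%, against 5.26% and 13.2% of the members. By probe set, 2 of 84 were higher and 8 lower, where 10.2% of all probe sets were called in each direction. The summed epithelial markers were at 15.42 to 15.44 in fl-CCs+p53R175H and 15.63 to 15.70 in fl-CCs+EV. Of the 8 markers 3 were called lower with p53R175H and 1, Cdh1, was called higher. The part of these shifts in the result was not tested.

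Cyc1, the cytochrome c1 of complex III, fell most. It read 10.49, 10.52 and 10.59 in fl-CCs+p53R175H and 11.05, 10.99 and 11.10 in fl-CCs+EV, a difference of -0.51 ± 0.11 (adjusted p = 0.00739). In mt-CCs the same gene differed from fl-CCs by -0.17 (adjusted p = 0.305). Ndufa6 read 10.71, 10.73 and 10.79 in fl-CCs+p53R175H and 11.11, 11.09 and 11.17 in fl-CCs+EV (-0.38 ± 0.08, adjusted p = 0.00395). Ndufb3, a small subunit of the membrane arm of complex I, read 11.63, 11.58 and 11.67 and 11.95, 11.98 and 12.05 in the same order (-0.37 ± 0.08, adjusted p = 0.00674). None of the members called in this comparison overlapped between the groups, and the share of all genes without overlap was not counted. Ndufs7 read 11.09, 11.19 and 11.22 in fl-CCs+p53R175H and 11.46, 11.43 and 11.67 in fl-CCs+EV (-0.36 ± 0.10, adjusted p = 0.0191), and Sdhc 11.50, 11.62 and 11.55 and 11.80, 11.91 and 11.82 (-0.29 ± 0.09, adjusted p = 0.0397). Without fl-CCs+EV replicate 3 or fl-CCs+p53R175H replicate 1, Ndufs7 no longer passed (adjusted p up to 0.0804).

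Ndufa8 and Ndufs3 were the genes that rose. Ndufa8 read 10.52, 10.54 and 10.72 in fl-CCs+p53R175H and 10.15, 10.14 and 10.18 in fl-CCs+EV, a rise of 0.44 ± 0.09 (adjusted p = 0.00471). Ndufs3 read 10.91, 11.01 and 11.04 and 10.64, 10.48 and 10.65 in the same order, a rise of 0.40 ± 0.08 (adjusted p = 0.00463). They were the only members called in the same direction in both settings. The share of all genes called so was not counted, and the number is therefore not a result about the members. The call of Ndufs3 in mt-CCs was lost without any 1 of 9 of the 12 arrays (adjusted p up to 0.128). Both rises were measured against a vector control that lay below the untransfected cells. Against fl-CCs, fl-CCs+p53R175H differed by 0.16 for Ndufa8 (adjusted p = 0.28) and by 0.10 for Ndufs3 (adjusted p = 0.481).

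The vector alone moved few members. Between fl-CCs+EV and fl-CCs no gene of 38 was higher in limma (1 at an unadjusted p under 0.05) and 2 were lower, with a median difference of -0.03, where 7.84% of all genes were higher and 7.24% lower. By probe set 1 was higher and 4 were lower (6.45% and 5.66% of all). The genes were Ndufs3 (-0.29 ± 0.08, adjusted p = 0.0369), and Ndufb2, of the membrane arm, which read 10.16, 9.96 and 10.19 in fl-CCs+EV and 10.38, 10.36 and 10.41 in fl-CCs (-0.28 ± 0.08, adjusted p = 0.0435). Neither call held with only the groups compared (adjusted p = 0.0908 and 0.112) or with the replicate number as a block, and leaving out any 1 of 7 arrays for Ndufs3 or 11 for Ndufb2 ended it (adjusted p up to 0.14 and 0.164). Ndufa8 differed by -0.27 (adjusted p = 0.0747). Vector and G418 came together in these cells and cannot be told apart. For fl-CCs+p53R175H against fl-CCs, no gene was higher (9.75% of all genes, and 0 members at an unadjusted p under 0.05 in limma) and 3 were lower (8.87%), namely Cyc1 (-0.51), Ndufs8 (-0.38) and Ndufs7 (-0.33). Of these only Cyc1 passed with only the groups compared. No probe set was higher (7.77% of all, and 1 of the members at an unadjusted p under 0.05) and 9 were lower (7.25%). These comparisons share fl-CCs or fl-CCs+EV arrays with the others and are no separate support for them.

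The third question was whether mutant p53 went with the same differences in both settings, which use separate arrays. The difference between the effect in mt-CCs and the effect in transfected cells was called for 12 of 38 genes. The effect in mt-CCs was higher for 8 (21.1%) and lower for 4 (10.5%), where 16.1% and 15.9% of all genes were called. Among the equally bright genes the shares were 21.2% and 23.4%, so the 8 lay near that share and the 4 below it. By probe set the counts were 14 and 10 of 84 (13.6% and 13.1% of all). In complex I, at the brightest probe set, 7 genes had a higher effect in mt-CCs. None had a lower one there (0 also at an unadjusted p under 0.05 in limma). A second probe set of Ndufb6 was called for a lower effect in mt-CCs (-0.55, adjusted p = 0.0119). At 11 of the 12 genes the effects had opposite signs in the separate settings, which a choice by the difference of effects favours. Over all 38 members 22 had opposite signs. The share of all genes with opposite signs was not counted, and this number is therefore not a result about the members.

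Ndufs7 had the largest such difference among the members, 0.90 ± 0.13 (adjusted p = 0.000307), and its second probe set gave 0.84 (adjusted p = 0.000102). Ndufa6 followed with 0.65 ± 0.11 (adjusted p = 0.000682), having read 11.23, 11.24 and 11.27 in mt-CCs and 10.88, 11.02 and 11.04 in fl-CCs. Together with Sdhc (0.58 ± 0.13, adjusted p = 0.00412) they were the genes called in both settings in opposite directions, which was not counted over all genes. Of these 6 calls only that of Ndufs7 in mt-CCs and that of Ndufa6 in the transfected cells held whichever array was left out, while the difference of effects held for all 3 genes. Ndufa10 (0.60), Ndufb10 (0.56), Ndufs4 (0.43), Ndufb3 (0.41) and Ndufb9 (0.39) also had a higher effect in mt-CCs, without a call in both settings.

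In the transfected cells, Ndufa10 read 11.53, 11.70 and 11.69 in fl-CCs+p53R175H and 12.02, 11.91 and 11.82 in fl-CCs+EV. Ndufb10 read 11.89, 11.93 and 11.95 and 12.12, 12.10 and 12.18, and Ndufs4 11.50, 11.45 and 11.56 and 11.70, 11.71 and 11.67. None of the 3 passed there (adjusted p = 0.0636, 0.0847 and 0.149). They were chosen by the difference of effects, which favours a fall with p53R175H. Ndufb9, an accessory subunit of the membrane arm, read 13.06, 12.94 and 13.02 in mt-CCs, 12.94, 12.78 and 12.85 in fl-CCs, 12.55, 12.60 and 12.68 in fl-CCs+p53R175H and 12.89, 12.87 and 12.78 in fl-CCs+EV, and passed in neither setting alone. Another bright probe set of Ndufb9 (mean 12.05) was called lower with p53R175H (-0.28, adjusted p = 0.0339). Ndufb3 read 11.67, 11.82 and 11.88 in mt-CCs and 11.75, 11.73 and 11.73 in fl-CCs, which overlap.

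Cox5a (-0.66 ± 0.11, adjusted p = 0.000755), Cycs (-0.58 ± 0.14, adjusted p = 0.00944), Uqcrc2 (-0.49 ± 0.15, adjusted p = 0.0297) and Cox4i1 (-0.32 ± 0.10, adjusted p = 0.0365) had the lower effect in mt-CCs. Among the 12 calls of this difference, those of Uqcrc2, Cox4i1 and Ndufb9 were lost without any 1 of 7, 10 and 8 arrays. In the transfected cells Cox5a read 12.46, 12.38 and 12.51 in fl-CCs+p53R175H and 12.27, 12.18 and 12.28 in fl-CCs+EV, a difference of 0.21 (adjusted p = 0.0906). Cycs read 12.12, 12.15 and 12.13 and 12.06, 11.86 and 12.05 in the same order (0.14, adjusted p = 0.393). For neither gene did the difference pass, and their choice by the difference of effects favours a rise with p53R175H. Uqcrc2 read 11.87, 11.87 and 11.93 and 11.79, 11.82 and 11.74 (0.11, adjusted p = 0.573), and Cox4i1 read 12.57, 12.64 and 12.60 and 12.64, 12.65 and 12.64 (-0.04, adjusted p = 0.78). Sdhd, lower in mt-CCs, read 12.04, 11.94 and 12.03 and 11.91, 12.05 and 12.05 (0.00, adjusted p = 0.998), and Ndufb6 10.99, 10.99 and 11.00 and 11.00, 11.03 and 11.21 (-0.09, adjusted p = 0.567), and for neither was the difference of effects called at the brightest probe set.

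In all, 20 of 38 genes were called at the brightest probe set for mt-CCs against fl-CCs, p53R175H against EV or EV against fl-CCs. The 18 called in none were Ndufs1, Ndufs8, Ndufv1, Ndufv2, Ndufa1, Ndufa2, Ndufa5, Ndufb5, Ndufb7, Ndufb9, Sdha, Sdhb, Uqcrc1, Uqcrfs1, Uqcrq, Cox5b, Cox6c and Cox7a2. Of these 18, 4 had another probe set that was called. In mt-CCs these were Ndufb7, higher by 0.55 (adjusted p = 0.00104), Ndufb5 (-0.28, adjusted p = 0.0325) and Uqcrq, with 2 probe sets near background (-0.48 and -0.37), and with p53R175H it was Ndufb9. No member had probe sets called in opposite directions in the same comparison.

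Glycolysis was set beside the chain. Of 18 listed genes 15 were measured, and Gpi1, Gapdh and Eno1 were not analysed here. In mt-CCs 2 of the 15 (13.3%) were higher and 6 (40.0%) were lower, where 18.3% and 17.7% of all genes were called. Among the equally bright genes set beside the chain the shares were 24.0% and 24.9%. Leaving out 1 array gave 3 to 6 lower. The median difference was -0.14, where the respiratory median was 0.07 and that of all genes -0.01. In fl-CCs+p53R175H none was higher in limma (0 also at an unadjusted p under 0.05) and 9 (60.0%) were lower than in fl-CCs+EV. Of all genes 12.1% were called lower there, and of the equally bright genes 17.6%. The median was -0.33 against -0.07 for the chain. All 15 had values below 0 there, from -2.35 to -0.11. The glycolysis list fell by more than the chain in the transfected cells by these medians, and the difference between the lists was not tested. In fl-CCs+EV 6 of the 15 were higher (7.84% of all genes) and none lower than in fl-CCs (0 also at an unadjusted p under 0.05 in limma). In fl-CCs+p53R175H against untransfected fl-CCs none was higher (1 at an unadjusted p under 0.05) and 11 of 15 were lower (8.87% of all genes), with a median of -0.32.

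**Figure D3:**
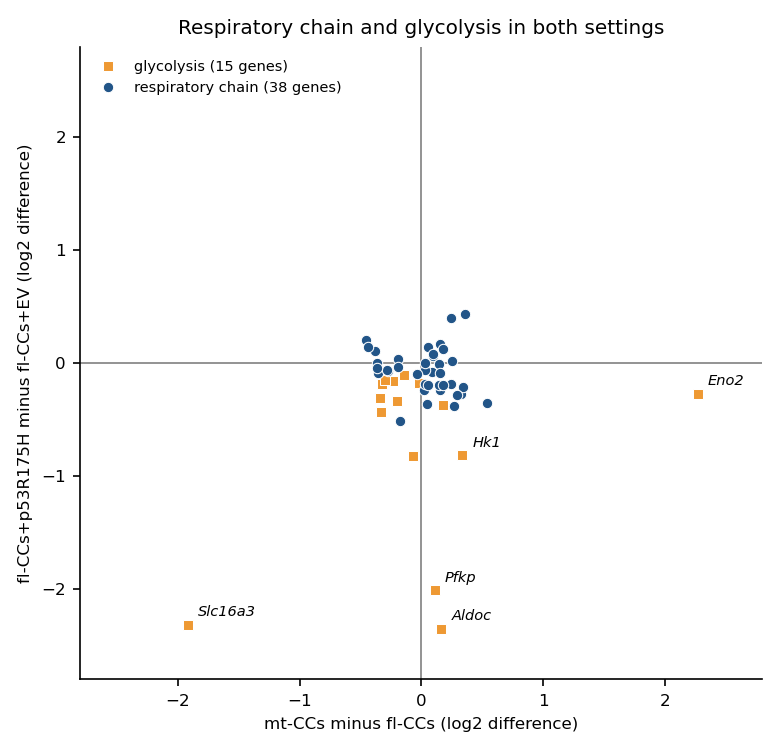
Log2 difference in mt-CCs minus fl-CCs (horizontal axis) against fl-CCs+p53R175H minus fl-CCs+EV (vertical axis) for 38 respiratory chain genes (circles) and 15 glycolysis genes (squares), each a gene at its brightest probe set. The respiratory chain genes lie within -0.51 and 0.54 on both axes, while all glycolysis genes lie below 0 on the vertical axis, down to -2.35.

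Slc16a3, the exporter of lactate, fell in both settings. It read 7.36, 7.31 and 7.83 in mt-CCs and 9.31, 9.66 and 9.30 in fl-CCs (-1.92 ± 0.17, adjusted p = 3.01e-06), and 8.44, 7.95 and 7.94 in fl-CCs+p53R175H and 10.31, 10.53 and 10.45 in fl-CCs+EV (-2.32 ± 0.17, adjusted p = 2.23e-06). Pkm, the pyruvate kinase of the last step, fell by 0.34 (adjusted p = 0.00279) and by 0.31 (adjusted p = 0.00888) on the log2 scale. These changes were larger than any of the chain for Slc16a3, and of the same order for Pkm.

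Other enzymes differed between the settings. Eno2, an enolase best known from neurons, read 8.26, 8.18 and 8.29 in mt-CCs and 5.57, 6.22 and 6.13 in fl-CCs, a 4.83-fold higher intensity (2.27 ± 0.16, adjusted p = 4.48e-07), and differed by -0.27 in the transfected cells (adjusted p = 0.309). Aldoc, an aldolase, read 9.53, 9.23 and 9.39 in fl-CCs+p53R175H and 11.74, 11.76 and 11.71 in fl-CCs+EV (-2.35 ± 0.19, adjusted p = 5.61e-06). In mt-CCs Aldoc differed by 0.16 (adjusted p = 0.596). Hk1, a hexokinase of the first step, rose by 0.34 in mt-CCs (adjusted p = 0.0277) and fell by 0.81 with p53R175H (adjusted p = 0.000182). The glycolysis genes called in both settings were thus Slc16a3, Pkm and Slc2a1, the glucose transporter, which fell in each (-0.33 and -0.43), and Hk1, which went both ways.

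**Figure D4:**
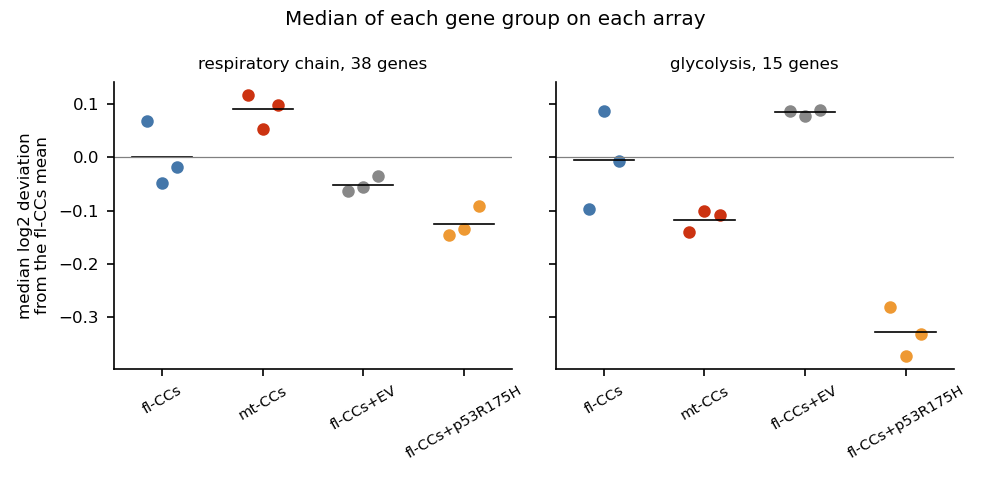
Median log2 deviation from the fl-CCs mean (vertical axis) over 38 respiratory chain genes (left) and 15 glycolysis genes (right), 1 point for each of the 12 arrays, with the group mean as a line. The respiratory median spans -0.15 to 0.12 and the glycolysis median -0.37 to 0.09, and the first fl-CCs array lies above the other fl-CCs arrays on the left and below them on the right.

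On single arrays the median deviation of the 38 respiratory genes from the fl-CCs mean was 0.12, 0.05 and 0.10 in mt-CCs, 0.07, -0.05 and -0.02 in fl-CCs, -0.06, -0.06 and -0.04 in fl-CCs+EV and -0.15, -0.14 and -0.09 in fl-CCs+p53R175H. The fl-CCs and mt-CCs arrays overlapped in this measure. For glycolysis it was -0.14, -0.10 and -0.11 in mt-CCs, -0.10, 0.09 and -0.01 in fl-CCs, 0.09, 0.08 and 0.09 in fl-CCs+EV and -0.28, -0.37 and -0.33 in fl-CCs+p53R175H. The arrays with p53R175H were the lowest in both lists.

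Neighbouring gene groups were read from lists written with the members. Their counts stand beside 18.3% of all genes higher and 17.7% lower in mt-CCs, and 13.0% and 12.1% with p53R175H. Of 20 further respiratory subunits measured, mt-CCs had 4 higher and 1 lower, and with p53R175H none was higher (1 at an unadjusted p under 0.05 in limma) and 3 were lower. Ndufab1, the acyl carrier protein of mitochondria, was the fall in mt-CCs (-0.67). Ndufb11 was the largest rise (0.43), and Uqcr10, of complex III, the next. With p53R175H the falls were Ndufa7 (-0.47), Uqcr11 (-0.42) and Ndufa12 (-0.35), of which Ndufa12 was higher in mt-CCs (0.32). Of 16 genes of complex V, the ATP synthase, 4 were higher and 2 lower in mt-CCs, and 2 were higher and 2 lower with p53R175H. Atp5g2, a copy of the membrane ring subunit, differed by 0.81 in mt-CCs and by -0.54 with p53R175H.

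Assembly factors, which build the complexes and are not part of them, had 9 of 40 genes higher (22.5%) and 7 lower (17.5%) in mt-CCs, and 5 in each direction (12.5%) with p53R175H, near the shares of all genes. Ndufaf4, for complex I, fell by 0.96 in mt-CCs and Cox15, which makes heme a for complex IV, fell by 0.72. Surf1, for complex IV, rose by 0.57 in mt-CCs and by 0.48 with p53R175H. Of 17 genes of the citric acid cycle and pyruvate dehydrogenase, 4 were higher and 5 lower in mt-CCs and 4 were higher and 2 lower with p53R175H. Suclg2, a succinyl-CoA ligase subunit, differed by -1.34 in mt-CCs, and Cs, citrate synthase, by 0.64. Of 9 tissue or hypoxia isoforms of respiratory subunits, 1 was higher and 3 were lower in mt-CCs and 1 was lower with p53R175H.

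Of 13 regulators of mitochondrial gene expression none was higher and 5 were lower (38.5%) in mt-CCs, with a median of -0.30, and none was higher and 1 was lower with p53R175H (at an unadjusted p under 0.05 in limma, 0 and 2 were higher). Esrra, the estrogen-related receptor alpha, read 5.69, 5.64 and 5.65 in mt-CCs and 6.12, 6.50 and 6.43 in fl-CCs (-0.69 ± 0.13, adjusted p = 0.00125). Pprc1, a coactivator of the PGC-1 family, differed by -0.49 (adjusted p = 0.00102), Myc by -0.56 (adjusted p = 0.000108), Yy1 by -0.30 (adjusted p = 0.0126), and Ppargc1b by -1.26 (adjusted p = 0.00147), with all 3 mt-CCs arrays below 5. With p53R175H Myc differed by -0.33 (adjusted p = 0.00914). Nrf1 and Gabpa, whose binding letters were searched upstream of the members, differed by -0.22 (adjusted p = 0.157) and 0.01 (adjusted p = 0.933) in mt-CCs.

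Of 16 genes of the hypoxia response, 4 were higher and 8 lower in mt-CCs with a median of -0.49, and none was higher (0 also at an unadjusted p under 0.05 in limma) and 12 (75.0%) were lower with p53R175H with a median of -0.78. In mt-CCs the 2 largest rises among called genes of this list were Pfkfb4 (0.82) and Hif1a, and the 2 largest falls were Car9 and Adm. With p53R175H the 2 largest falls were Car12 and Adm. Higd1a, a small mitochondrial protein of the respiratory chain, fell by 1.05 and by 0.75. Pdk1, the kinase that holds back pyruvate dehydrogenase, fell by 0.96 and by 0.49. The medians of the hypoxia and glycolysis lists thus lay below 0 in both settings, while that of the respiratory chain was 0.07 in mt-CCs and -0.07 with p53R175H.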

How the data were processed

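RNA of 12 cultures in 4 groups was measured on Affymetrix mouse expression arrays. The authors judged array quality with affy and used RMA to summarize probe sets and to normalize, and they deposited log2 values (the submitters' notes give no version of RMA). The number of arrays, 3 a group, limits the precision, and RMA compresses differences of dim probe sets.

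From the deposited log2 values, after removal of 64 control probe sets, 45037 of 45101 entered a limma 3.58.1 fit (lmFit and eBayes, R 4.3.3) of the means of the 4 groups, with 5 contrasts and Benjamini-Hochberg adjustment over all probe sets. A call needed an adjusted p of 0.05 or less, the threshold of the methods, which name Partek for this step. SE is that of the fit, SD that of 3 arrays. A gene was read at the probe set of highest mean over all arrays. The methods' choice, the smallest adjusted p, was an alternative. Genes were named from the platform annotation (34945 probe sets with a single symbol, 932 with several, 9160 with none), and the 84 member probe sets matched RefSeq by gene number with 0 changed symbols. Trp53 was not analysed here, and a further allele that all 4 groups share is not reported here. The members and lists were chosen with earlier results of these data known. Genes with values per array are, among called members, the 2 largest differences of each class in mt-CCs, the 3 largest rises and falls in the other comparisons, and those shared or opposite between settings. In the other lists the rule named the 2 largest rises and falls. Slc2a1, Nrf1, Gabpa, Yy1, Pprc1, Ndufa12, Pdk1, Higd1a, Krt19 and Cldn4, and the called probe sets of Ndufb5, Ndufb7 and Uqcrq, were chosen after their values were seen. The procedure was tested on simulated data. Settings varied were which arrays entered the fit, the replicate block, an intensity trend, array weights, no moderation, a filter on dim probe sets, other normalizations, a fold limit, cross-hybridizing probe sets, the probe set of a gene, and leaving out each array.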

Additional observations from a re-analysis of the deposited data

Results flagged for a closer look

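The effect of mutant p53 differed between mt-CCs (against fl-CCs) and transfected cells (against vector) by a test of the difference itself in limma for 12 member genes. The effect was higher in mt-CCs for Ndufs7 by 0.90 on the log2 scale, Ndufa6 by 0.65, Ndufa10 by 0.60, Sdhc by 0.58, Ndufb10 by 0.56, Ndufs4 by 0.43, Ndufb3 by 0.41 and Ndufb9 by 0.39. The difference of effects was -0.32 for Cox4i1, -0.49 for Uqcrc2, -0.58 for Cycs and -0.66 for Cox5a. Among the glycolysis genes named it was 2.54 for Eno2, 2.52 for Aldoc and 1.15 for Hk1. Groups of 3 arrays are too small for a test of outlying arrays.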

How the results depend on the processing

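Counts of member probe sets are given as higher and lower. The share of all probe sets called was not counted under the settings of this section. A change in a count is therefore not a result about the members. With only the groups compared in the fit, they were 6 and 12 for mt-CCs against fl-CCs, 0 and 0 for EV against fl-CCs, and 3 lower for p53R175H against fl-CCs, and glycolysis had 1 and 3 in mt-CCs. Of the 17 genes called in mt-CCs this fit lost Ndufa3, Ndufa6, Ndufa9, Ndufa10, Ndufb8, Ndufs3, Ndufs4, Sdhc, Sdhd and Uqcrc2. The difference of the mutant p53 effects uses all groups. With an intensity trend, 24 were higher in mt-CCs, 9 and 18 were called for p53R175H against EV, 2 and 8 for EV, 1 and 21 for p53R175H against fl-CCs, and 16 were lower for the difference of effects. Without moderation, 22 were higher in mt-CCs, 6 and 14 were called for p53R175H against EV, 2 were higher for EV and 18 lower for p53R175H against fl-CCs. With probe sets of a mean of at least 5 only, 19 were higher in mt-CCs, 5 and 15 were called for p53R175H against EV, 2 and 8 for EV, and 19 were lower for p53R175H against fl-CCs. Array weights gave 2 higher for EV. An absolute log2 difference of at least 0.5 left 3 and 4 in mt-CCs, 0 and 1 for p53R175H against EV, 0 and 0 for EV, 1 lower for p53R175H against fl-CCs and 8 higher for the difference, and for glycolysis 1 and 1 in mt-CCs and 5 lower with p53R175H. The cause was not tested.

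Same-numbered arrays of different groups showed no strong shared deviation (r of -0.15 to 0.07 over 18 pairs). The labels do not say whether the numbers mark pairs, and the main fit did not use them so. With the replicate number as a block, EV against fl-CCs had 0 and 1, and all other counts stayed within 1.5 times.

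Leaving out 1 array gave 7 to 10 higher and 14 to 19 lower in mt-CCs, 2 to 3 and 4 to 12 for p53R175H against EV, 0 to 2 and 0 to 5 for EV, 0 to 0 and 3 to 11 for p53R175H against fl-CCs, and 11 to 20 and 8 to 9 for the difference. The lowest count in mt-CCs came without fl-CCs replicate 3, and the count of 4 for p53R175H against EV without fl-CCs+EV replicate 3 or fl-CCs+p53R175H replicate 1. The median of the member genes ran from 0.046 to 0.14 in mt-CCs (0.14 without fl-CCs replicate 1), from -0.08 to -0.05 for p53R175H against EV and from -0.07 to -0.01 for EV. Glycolysis had 1 to 2 higher and 3 to 6 lower in mt-CCs and 0 to 0 and 8 to 9 with p53R175H. Of the 17 member genes called in mt-CCs, 8 passed whichever array was left out (Ndufs7, Ndufa8, Ndufb10, Ndufb6, Sdhd, Cox5a, Cox4i1 and Cycs), as did 5 of 7 for p53R175H against EV (Ndufa6, Ndufa8, Ndufb3, Ndufs3 and Cyc1), 0 of 2 for EV, 2 of 3 for p53R175H against fl-CCs and 9 of 12 for the difference, where Uqcrc2, Cox4i1 and Ndufb9 were lost. In mt-CCs Ndufa9 was lost without fl-CCs replicate 3 (adjusted p = 0.0564 in limma), Ndufb8 without mt-CCs replicate 1 or fl-CCs replicate 2 (up to 0.0659), Ndufa6 without mt-CCs replicate 3 or fl-CCs replicate 1 (up to 0.0587), Uqcrc2 without mt-CCs replicate 2 or 3 or fl-CCs replicate 1 (up to 0.0624), Ndufa10 without mt-CCs replicate 1 or fl-CCs replicate 2 or 3 (up to 0.0905), Sdhc without mt-CCs replicate 2 or 3 or fl-CCs replicate 1 or 3 (up to 0.0882), and Ndufs3, Ndufs4 and Ndufa3 without any 1 of 9, 11 and 10 of the 12 arrays (up to 0.128, 0.131 and 0.14). Sdhc was lost for p53R175H against EV without any 1 of 8 arrays (up to 0.133). No difference of a called member gene changed sign when an array was left out, or under array weights or other normalizations. It also kept its sign at the probe set with the smallest adjusted p. The fit of only the groups compared, the block, the trend, no moderation, the dim filter and the fold limit keep the difference itself. Its sign could not change in those runs.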
